A study of Rattus norvegicus with 16 samples.

Results

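Sympathoadrenal lineage transcription factors are the regulators that turn migrating neural crest cells into sympathetic neurons and into the chromaffin cells of the adrenal medulla. The set described here has 10 genes, Neurod1, Phox2a, Hand1, Hand2, Gata2, Gata3, Isl1, Sox4, Sox11 and Eya1. They were picked by name, with earlier results of these data known, so their counts against all probe sets only describe them. Every probe set of the array whose only annotated symbol is one of these names was kept. That gave 21 of the 31042 probe sets and 10 of the 14217 genes measured. Sox4 had 7 probe sets, Hand1, Hand2, Gata2, Gata3 and Isl1 had 2 each, and the other genes had 1. The probe set with the highest mean over all arrays was taken as a gene's leading probe set, and it is the one meant where none is named.

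The tissue came from rats of the strain Sprague–Dawley white eye/Wistar–Kyoto, on 16 expression arrays in 4 groups. Adrenal hyperplasia of p27Kip1 (Cdkn1b) mutant rats aged 2 months was on 8 arrays, of which 4 carry the label female and 4 the label male. Wild-type adrenomedullary tissue of the same age was on 2 arrays, a pool of 2 animals labelled male and a pool of 3 labelled female. Pheochromocytoma, the tumour of chromaffin cells, from mutant rats was on 4 arrays, 3 of rats aged 8 months labelled female and 1 of a rat aged 9 months labelled male. Older wild-type adrenomedullary tissue was on 2 arrays, a pool of 2 females aged 10 months and a pool of 2 males aged 12 and 17 months. p27Kip1 is an inhibitor of cyclin-dependent kinases, and the labels do not say whether the rats carried 1 or 2 mutant copies. A pool averages its animals, so the spread between wild-type arrays understates that between wild-type rats, and p-values measure only the spread between these arrays.

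Phox2a, a paired-type homeodomain protein, and Hand2, a basic helix-loop-helix protein, act early in the noradrenergic programme, and Gata2 and Gata3, zinc finger proteins, act with them on the genes of catecholamine synthesis. Isl1, a LIM homeodomain protein, and Sox4 and Sox11, which belong to the same subgroup of HMG box proteins, are known in mice for the growth and survival of sympathetic precursors. Neurod1 is a basic helix-loop-helix factor of neuronal and endocrine differentiation, and Eya1 is a phosphatase and transcriptional coactivator.

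The stretches upstream of 4 of these genes are shown because the factors bind known short motifs and several of the genes moved together. RefSeq promoters on the rat build GRCr8 were matched by symbol for 8 of the 10 genes. Each window holds the 250 bases before the annotated start, 5′ to 3′ on the gene's strand. Neurod1 is chr3:84770455-84770704 on the minus strand and Isl1 is chr2:49823443-49823692 on the minus strand, and both genes were higher in both lesions. Phox2a is chr1:165590507-165590756 on the plus strand and Hand2 is chr16:37931489-37931738 on the minus strand, and both were lower in both older groups. Capitals mark the E-box CANNTG, bound by basic helix-loop-helix proteins, the GATA site, which is GATA with A or T before it and A or G after it, and the homeodomain core TAATTA, on either strand.
Neurod1: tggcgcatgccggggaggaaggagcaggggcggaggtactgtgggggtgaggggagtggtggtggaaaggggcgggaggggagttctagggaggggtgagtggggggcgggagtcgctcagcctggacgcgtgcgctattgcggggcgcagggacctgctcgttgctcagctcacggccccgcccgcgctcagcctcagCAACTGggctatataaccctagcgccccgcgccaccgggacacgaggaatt
Isl1: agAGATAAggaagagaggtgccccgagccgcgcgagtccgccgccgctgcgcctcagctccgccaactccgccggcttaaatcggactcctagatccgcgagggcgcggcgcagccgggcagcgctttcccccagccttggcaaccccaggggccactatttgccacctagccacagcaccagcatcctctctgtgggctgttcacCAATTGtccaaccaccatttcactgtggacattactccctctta
Phox2a: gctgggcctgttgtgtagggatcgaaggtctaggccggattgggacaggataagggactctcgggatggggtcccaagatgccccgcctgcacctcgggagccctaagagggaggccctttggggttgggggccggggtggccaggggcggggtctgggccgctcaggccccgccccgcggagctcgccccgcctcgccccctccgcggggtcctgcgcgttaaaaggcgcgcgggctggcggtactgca
Hand2: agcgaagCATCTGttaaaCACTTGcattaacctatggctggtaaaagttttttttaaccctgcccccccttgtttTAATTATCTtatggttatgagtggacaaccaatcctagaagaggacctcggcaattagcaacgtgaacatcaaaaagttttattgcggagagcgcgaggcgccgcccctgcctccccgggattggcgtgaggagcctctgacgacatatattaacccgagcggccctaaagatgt
An E-box was in 5 of the 8 windows (Neurod1, Hand2, Gata3, Isl1 and Sox11), against 65.2% of the 27457 rat windows of this length. A GATA site was in 3 (Hand2, Isl1 and Sox11), against 26.7%, and the homeodomain core was in Hand2 alone, against 4.94%. In Hand2 the core and a GATA site overlap. The Phox2a window held none of these letters, which says nothing on the binding of a factor elsewhere.

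Values are log2 values made by RMA, which corrects background, brings the arrays to a common scale and joins the probes of a set into 1 value. Array medians lay between 6.51 and 6.61, and the first quartile of an array lay between 4.71 and 4.93. The level of Xist, an RNA made from an inactivated X, went against the labelled sex on 6 of the 16 arrays, 4 hyperplasia arrays and both young pools. The labelled sex was not used in the main fit. The mean of 10 measured adrenal cortex markers was lower on every hyperplasia array (10.24 to 11.08) than in both young pools (11.45 and 11.61), and lower on every pheochromocytoma array (10.17 to 11.50) than in both older pools (11.82 and 12.25). Of these markers 3 fell and none rose in hyperplasia, and 8 fell and none rose in pheochromocytoma. Scarb1, the lipoprotein receptor that brings in cholesterol, and Star, which carries cholesterol into mitochondria, differed by -1.22 and -0.96 in hyperplasia, and the ACTH receptor's partner Mrap and the steroidogenic regulator Nr5a1 by -2.002 and -1.81 in pheochromocytoma. The mean of 10 proliferation markers was higher on every lesion array than in its wild-type pools, at 7.43 to 7.99 in hyperplasia against 6.50 and 6.76, and at 7.15 to 7.92 in pheochromocytoma against 6.38 and 6.37. The mean of the chromaffin markers was 13.56 to 13.71 in hyperplasia against 13.77 and 13.69, and 13.62 to 13.80 in pheochromocytoma against 13.76 and 13.36, and overlapped in both, as did those of the Schwann, endothelial, leukocyte and mast cell markers. The mean of the red blood cell markers was lower on every hyperplasia array (6.94 to 7.86, against 8.13 and 7.91), and that of the fibroblast and pericyte markers higher on every pheochromocytoma array (8.53 to 9.14, against 8.42 and 8.39). In tissue of mixed cells, fewer cells of a type and less RNA per cell cannot be told apart. The brighter Cdkn1b probe set read 11.58 to 11.86 in hyperplasia against 10.89 and 11.04, and 11.39 to 11.70 in pheochromocytoma against 10.45 and 10.73, while the dimmer one was lower on every hyperplasia array (5.45 to 6.81, against 6.84 and 6.96) and overlapped in pheochromocytoma (3.83 to 4.40, against 4.07 and 4.21). Since the labels do not place the mutation in the transcript, these values do not check the genotype.

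**Figure D1:**
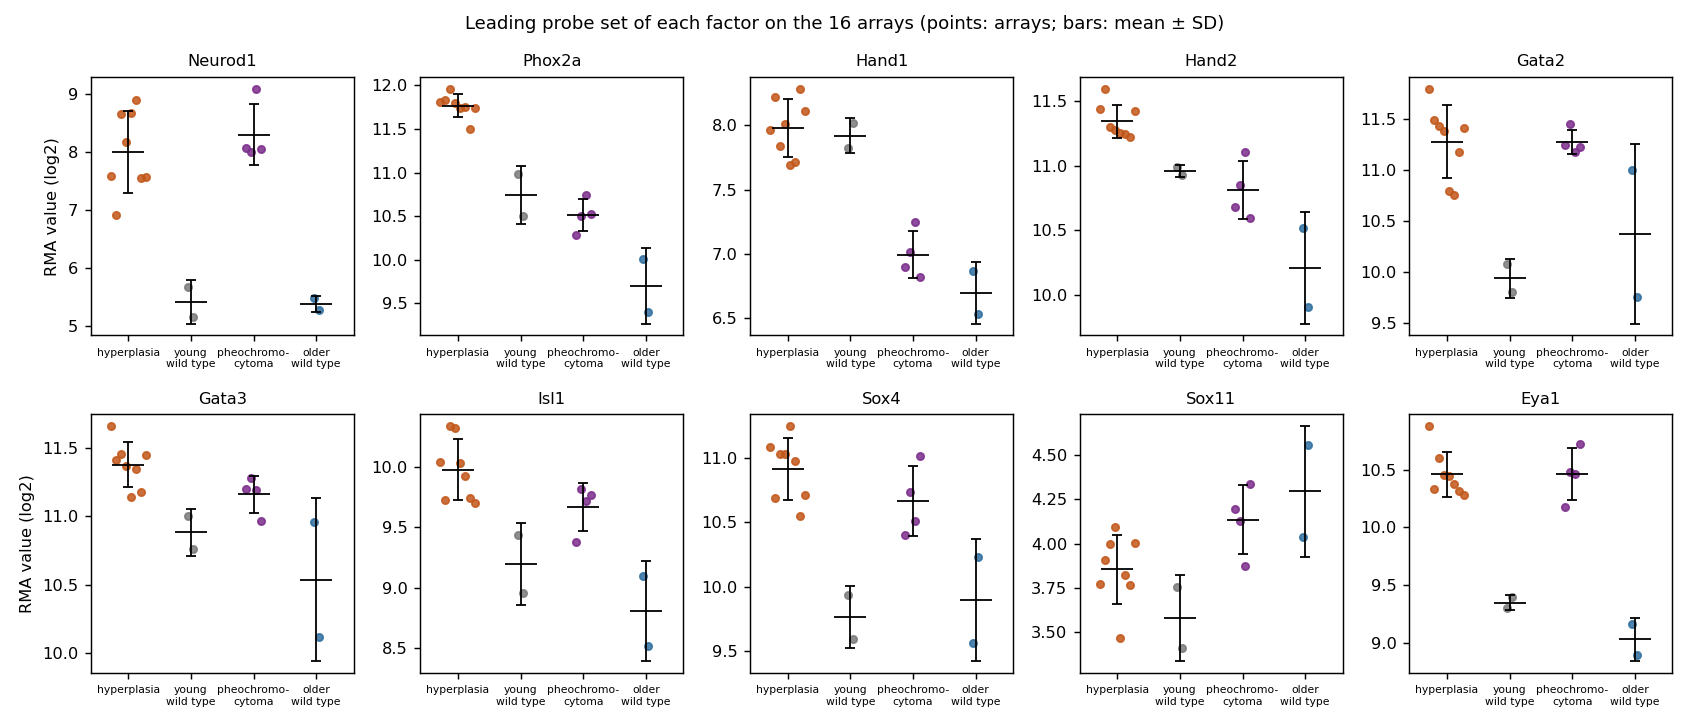
Log2 RMA value of the leading probe set of each of the 10 genes, each panel on its own scale, with a point for each array and a bar for the mean ± SD of hyperplasia (n = 8), young wild type (n = 2), pheochromocytoma (n = 4) and older wild type (n = 2). Neurod1, Phox2a, Hand2, Gata2, Gata3, Isl1, Sox4 and Eya1 had every lesion array above its own wild-type pools.

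Hyperplasia was set against young wild type to ask whether the lineage factors differ in the mutant gland before tumours form. Neurod1, Gata2, Sox4, Eya1, Phox2a and Isl1 rose, 6 of the 10 genes, and none fell. Hand1, Hand2, Gata3 and Sox11 did not pass the test. Over all probe sets 4.32% rose and 3.08% fell at an adjusted p under 0.05 in limma, so 11 of the 21 probe sets of these genes, all of them higher, stood against that background. Sox4 alone gave 6 of these 11, and its probe sets are not separate tests. Every hyperplasia array lay above both young pools for 8 of the 10 genes, against 1805 of all 14217 genes by leading probe set and 9.81% of all probe sets. The median difference of the 10 genes was 0.90, against -0.011 over all genes. Since the genes were chosen with earlier results known, these counts and medians are descriptions and not tests of the set.

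Neurod1 had the largest difference of the set. It read between 6.91 and 8.91, with a median of 7.88, on the hyperplasia arrays, against 5.67 and 5.14 in the young pools. The groups were far apart, and the difference was 2.59 ± 0.42 (SE), 6.04-fold (adjusted p = 0.00189).

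Among the early noradrenergic factors, Phox2a read between 11.49 and 11.96, median 11.77, in hyperplasia against 10.98 and 10.51 in the young pools. Its hyperplasia arrays were tightly grouped and all above the pools, with a difference of 1.02 ± 0.16 (adjusted p = 0.00139). Hand2 read between 11.22 and 11.59, median 11.29, in hyperplasia against 10.99 and 10.93. The groups did not overlap, but the difference of 0.38 ± 0.15 did not pass the test (adjusted p = 0.137). Hand1, the Hand2 relative, read between 7.69 and 8.28, median 7.99, in hyperplasia against 7.83 and 8.01 in the pools, within the same range, and differed by 0.06 ± 0.16.

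Gata2 read between 10.75 and 11.80, median 11.40, in hyperplasia against 10.08 and 9.81 in the young pools, which is 2.53-fold higher (1.34 ± 0.27, adjusted p = 0.00703). Gata3 read between 11.14 and 11.66, median 11.39, in hyperplasia against 11.00 and 10.76. Every hyperplasia array was above both pools, but by little, and 0.49 ± 0.17 did not pass (adjusted p = 0.092).

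Isl1 read between 9.70 and 10.34, median 9.98, in hyperplasia against 9.44 and 8.96 in the young pools, and rose by 0.78 ± 0.20 (adjusted p = 0.0234). Sox4 read between 10.55 and 11.24, median 11.00, in hyperplasia against 9.93 and 9.59, and rose by 1.15 ± 0.20 (adjusted p = 0.00275). Eya1 read between 10.28 and 10.88, median 10.41, in hyperplasia against 9.30 and 9.39, and rose by 1.11 ± 0.15 (adjusted p = 0.000516). All 3 had their hyperplasia arrays above both pools. Sox11 read between 3.47 and 4.09 in hyperplasia against 3.75 and 3.41, and it lay below the first quartile of its array on all 16 arrays; whether it is above background was not tested.

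Without the second young pool, which was labelled female but had a low Xist level, 1 of the 10 genes passed (Eya1), against 6 with all arrays, and 564 of all probe sets passed, against 2296. Neurod1 then differed by 2.33 (adjusted p = 0.0562), Gata2 by 1.20 (adjusted p = 0.125) and Sox4 by 0.98 (adjusted p = 0.0826). Phox2a differed by 0.79 (adjusted p = 0.0605) and Isl1 by 0.54 (adjusted p = 0.349). With the mean cortex marker level added as a covariate, Eya1 alone passed (0.76, adjusted p = 0.0137), Neurod1 differed by 2.12 (adjusted p = 0.0672), and 301 of all probe sets passed. The ranges of that mean do not meet between hyperplasia and young wild type, so the fit cannot separate it from the difference between these groups. Neither the calls lost nor the call kept shows what goes with the cortex level.

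**Figure D2:**
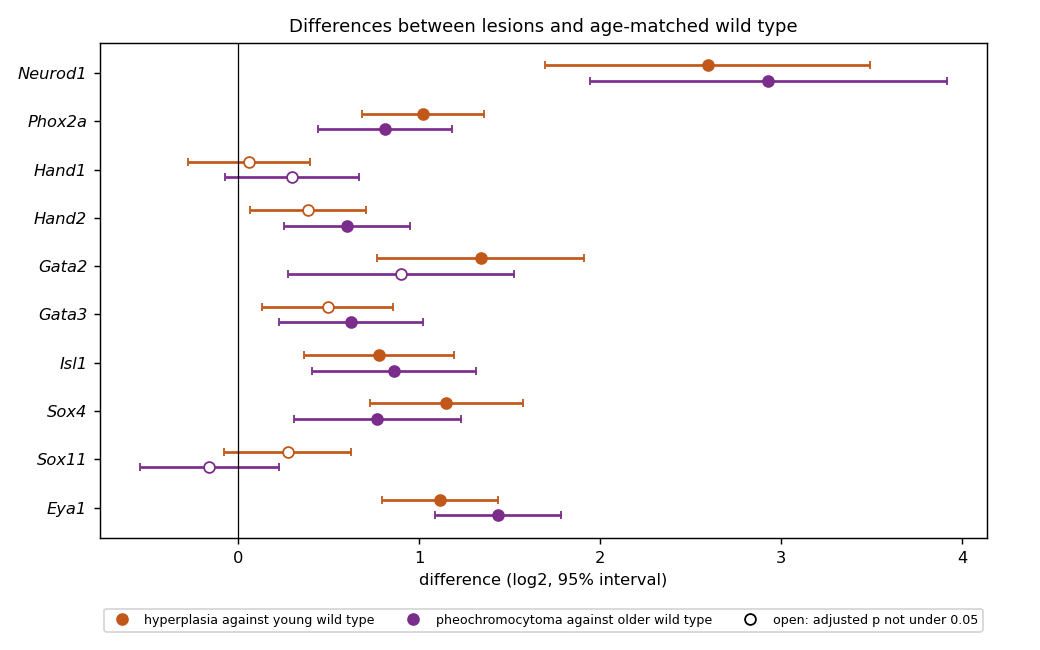
Log2 difference of the leading probe set, with its 95% interval from limma, for hyperplasia against young wild type (orange) and pheochromocytoma against older wild type (purple), filled where the adjusted p is under 0.05. Neurod1 lies farthest from 0 in both, and the paired intervals of each gene overlap.

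Pheochromocytoma was set against older wild type to ask how the factors stand in the tumour. Neurod1, Eya1, Isl1, Phox2a, Sox4, Gata3 and Hand2 rose, 7 of the 10 genes, and none fell; Gata2, Hand1 and Sox11 did not pass the test. Over all probe sets 8.31% rose and 5.95% fell, and 9 of the 21 probe sets of these genes rose, some of them Sox4 probe sets, which are not separate tests. When each array was centred on its median, 1938 probe sets rose and 2416 fell, after quantile normalisation 2302 and 2237, against 2579 and 1846 as deposited, and 6, 8 and 7 of the 10 genes rose. Every tumour array lay above both older pools for 8 of the 10 genes, against 3224 of all 14217 genes by leading probe set and 20.0% of all probe sets. The median difference of the 10 genes was 0.79, against 0.005 over all genes. Here too the counts and medians describe genes chosen with earlier results known.

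Neurod1 read 8.07, 8.00, 9.09 and 8.05 in the 4 tumours, against 5.48 and 5.27 in the older pools. The tumours were all far above the pools, with the third one higher than the rest, and the difference was 2.93 ± 0.46, 7.62-fold (adjusted p = 0.00113).

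Eya1 read 10.18, 10.48, 10.47 and 10.73 in the tumours, against 9.16 and 8.90 in the older pools. It rose by 1.43 ± 0.16 (adjusted p = 0.000155), the smallest p of the set in either lesion. Phox2a read 10.29, 10.51, 10.74 and 10.52 in the tumours, against 10.01 and 9.40, and rose by 0.81 ± 0.17 (adjusted p = 0.00651). The first tumour was the nearest to the older pools for both genes. Hand2 read 10.68, 10.85, 11.11 and 10.60 in the tumours against 10.52 and 9.91, a narrow gap between the groups, and rose by 0.60 ± 0.16 (adjusted p = 0.0242). That difference was 0.904 without the first older pool (adjusted p = 0.00369), 0.29 without the second (adjusted p = 0.45) and 0.4998 without the third tumour (adjusted p = 0.0574). The second Hand2 probe set, 1369817_at, overlapped and did not pass in either lesion, at 0.33 ± 0.19 in hyperplasia (adjusted p = 0.327) and 0.475 ± 0.21 in pheochromocytoma (adjusted p = 0.139). Hand1 read 6.90, 7.02, 7.25 and 6.82 in the tumours against 6.87 and 6.53, which overlap, and differed by 0.30 ± 0.17 (adjusted p = 0.274).

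Isl1 read 9.38, 9.82, 9.72 and 9.77 in the tumours against 9.10 and 8.52 in the older pools, and rose by 0.86 ± 0.21 (adjusted p = 0.0143). Sox4 read 10.40, 10.73, 10.51 and 11.01 in the tumours against 9.56 and 10.23, and rose by 0.77 ± 0.22 (adjusted p = 0.0285). Both genes had all tumours above both pools, Sox4 by a small margin. The Sox4 difference was 0.44 without the first older pool (adjusted p = 0.292), 0.75 without the second tumour (adjusted p = 0.0558) and 0.65 without the fourth (adjusted p = 0.0694). Gata3 read 11.20, 11.28, 11.19 and 10.97 in the tumours against 10.96 and 10.12. The lowest tumour nearly touched the higher pool, and the difference was 0.62 ± 0.19 (adjusted p = 0.0367). Its size differed with the older pool left out: without the first it was 1.04 (adjusted p = 0.00145) and without the second 0.20 (adjusted p = 0.64). Without tumour 1, 2 or 3 it did not pass (0.58 to 0.61, adjusted p = 0.0602 to 0.0756). Gata2 read 11.25, 11.45, 11.18 and 11.23 in the tumours against 11.00 and 9.76, and 0.90 ± 0.30 did not pass (adjusted p = 0.0529). The tumours were close together here and the older pools apart: without the first pool Gata2 differed by 1.52 (adjusted p = 0.00348), and without the second by 0.27 (adjusted p = 0.716).

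Without the second older pool 3 of the 10 genes passed (Neurod1, Eya1 and Sox4), and 596 of all probe sets, against 4425 with all arrays. Phox2a then differed by 0.50 and Isl1 by 0.57. The second older pool was of males aged 12 and 17 months. The tumours came from rats aged 8 and 9 months, and 3 of the 4 arrays were labelled female. Whether this age gap adds to the tumour differences was not tested. With the mean cortex marker level added as a covariate, Eya1 alone passed (0.91, adjusted p = 0.0374), as did 67 of all probe sets. In that fit Neurod1 differed by 2.22 (adjusted p = 0.19), Hand2 by 0.60 (adjusted p = 0.345) and Gata3 by 0.50 (adjusted p = 0.495). Isl1 differed by 0.23 (adjusted p = 0.735), Sox4 by 0.31 (adjusted p = 0.71) and Phox2a by 0.45 (adjusted p = 0.453). The ranges of the cortex mean do not meet between the tumours and the older pools either, so the same limit holds for this fit. With only the arrays of these 2 groups in the fit, 2 genes passed (Neurod1 and Eya1), and 1915 of all probe sets.

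Whether the 2 lesions differed from their own wild type by different amounts was tested as an interaction. None of the 10 genes and none of the 21 probe sets passed, against 0.0258% of all probe sets (8 in limma, with 3461 at an unadjusted p under 0.05). The difference of effects was 0.34 for Neurod1, with a 95% interval of -0.998 to 1.67, and 0.32 for Eya1, with an interval of -0.15 to 0.79. For Sox11 it was -0.43, with an interval of -0.95 to 0.09, and for Gata2 -0.44, with an interval of -1.29 to 0.41.

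Pheochromocytoma was then set against hyperplasia, and older against young wild type, to compare the older with the younger groups. In this design age goes with the lesion and with the signal of the control probe sets described below. These cannot be told apart. Phox2a, Hand1 and Hand2 were lower in the older group of both pairs. In pheochromocytoma against hyperplasia 3 of the 10 genes were lower and none higher, where 20.3% of all probe sets were lower and 20.4% higher. In older against young wild type 3 were lower and 1 was higher, Sox11 (0.71 ± 0.21, at values below the first quartile), where 13.3% of all probe sets were lower and 10.4% higher.

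Phox2a stood at 10.51 ± 0.19 (SD, n = 4) in pheochromocytoma and 11.76 ± 0.13 (n = 8) in hyperplasia, a difference of -1.25 ± 0.12 (SE, adjusted p = 7.88e-07), and the older pools differed from the young ones by -1.04 ± 0.20 (adjusted p = 0.0016). Hand1 stood at 7.00 ± 0.18 in pheochromocytoma and 7.98 ± 0.22 in hyperplasia, a difference of -0.98 ± 0.12, and the wild-type difference was -1.22 ± 0.20. Hand2 differed by -0.53 ± 0.12 between the lesions and by -0.75 ± 0.19 between the wild types. Its second probe set, 1369817_at, differed by far more, -2.20 ± 0.15 and -2.34 ± 0.24, although both probe sets rose and fell together over the arrays (r = 0.881 over 16 arrays, which share their groups). Between the lesions Neurod1 differed by 0.30, with an interval of -0.40 to 0.995, Gata2 by -0.0035, with an interval of -0.45 to 0.44, and Eya1 by 0.0013, with an interval of -0.25 to 0.25, and none passed.

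The control probe sets at the 3′ and 5′ ends of long transcripts also differed between the younger and older groups. The 3′ minus 5′ ranges of beta-actin, GAPDH and hexokinase did not overlap between them. The 3′ minus 5′ difference of the hexokinase control was 2.16 to 3.30 in pheochromocytoma and 1.21 to 1.63 in hyperplasia, and 2.29 to 2.92 in older and 1.07 to 1.18 in young wild type. With that difference as a covariate, Phox2a differed by -1.61 (adjusted p = 0.00784) and Hand1 by -1.43 (adjusted p = 0.0139) between the lesions, while Hand2 differed by -0.97 (adjusted p = 0.0693). All 3 differed more than without it, and 2 of the 10 genes passed, against 3. Of all probe sets 1013 passed with it, against 12631 without. The ranges of this covariate do not meet between the lesions or between the wild types. The fit therefore cannot separate it from the difference between these groups, and the larger values do not show a difference apart from it.

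**Figure D3:**
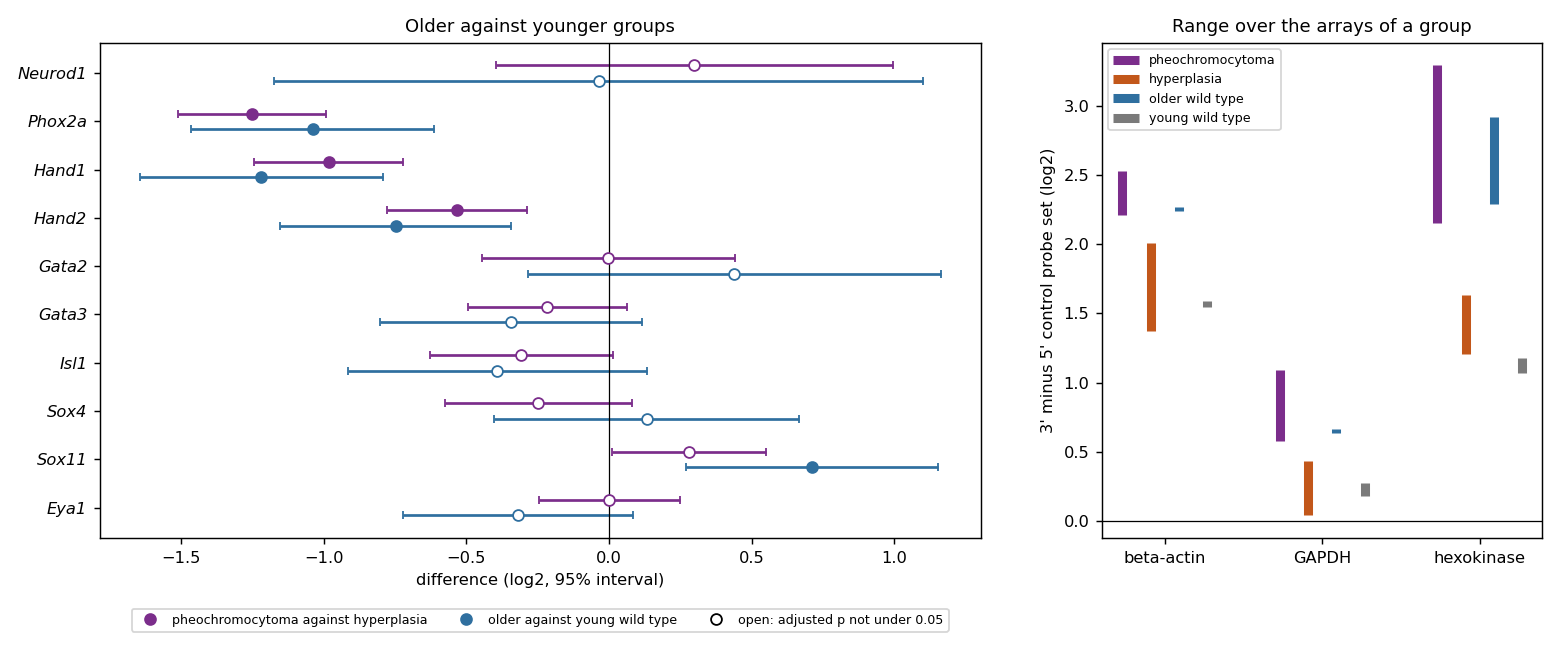
Left, log2 difference of the leading probe set with its 95% interval for pheochromocytoma against hyperplasia (purple) and older against young wild type (blue), filled where the adjusted p is under 0.05. Right, lowest to highest 3′ minus 5′ difference of the beta-actin, GAPDH and hexokinase control probe sets on the arrays of each group; Phox2a, Hand1 and Hand2 lie below 0 in both pairs, and the older groups have the higher 3′ minus 5′ differences.

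Sox4 was measured by 7 probe sets, which share their target gene and are not separate tests of it. In hyperplasia 6 of the 7 rose against young wild type, by 0.69 to 1.42, and 1375257_at did not pass (-0.08 ± 0.12, adjusted p = 0.753). In pheochromocytoma 3 of the 7 rose against older wild type, by 0.75 to 0.91, and the others did not pass. The largest gain was at 1384000_at, 1.42 ± 0.21 in hyperplasia (adjusted p = 0.000924) and 0.91 ± 0.23 in pheochromocytoma (adjusted p = 0.0151). The 3 probe sets that rose in both, 1383137_at, 1373860_at and 1384000_at, tracked each other over the arrays (r = 0.921 and 0.887 with the leading one). Between pheochromocytoma and hyperplasia the leading probe set did not pass (-0.25 ± 0.15), while 1375123_at was lower by 1.79 on the log2 scale and 5 of the 7 were lower in all. In the same comparison 1375257_at was higher (0.37 ± 0.09, adjusted p = 0.00439). The probe sets of this gene thus did not move alike between the lesions.

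**Figure D4:**
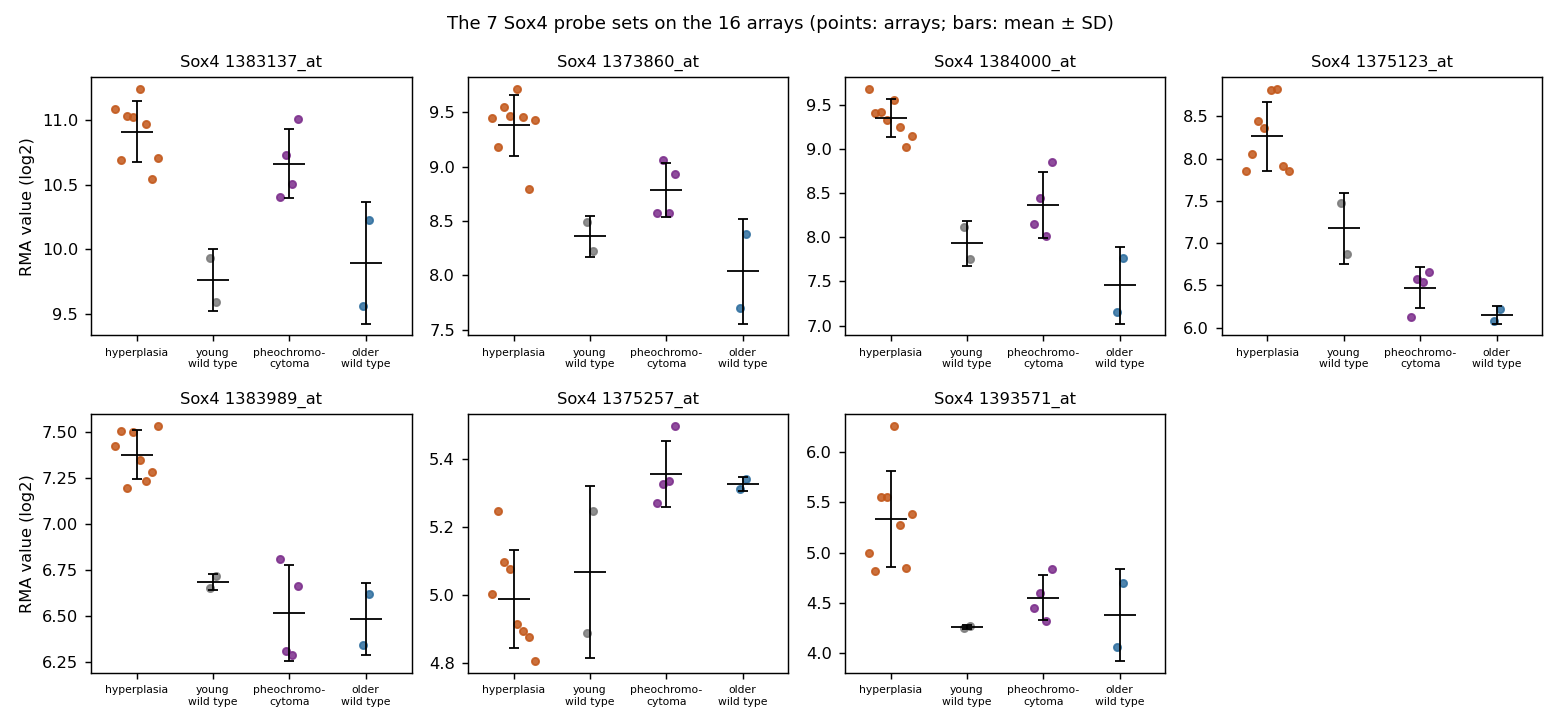
Log2 RMA value of the 7 Sox4 probe sets, each panel on its own scale, with a point for each array and a bar for the mean ± SD of hyperplasia, young wild type, pheochromocytoma and older wild type. Hyperplasia is above young wild type in 6 of the 7, and 1375123_at has every hyperplasia array above every pheochromocytoma array.

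The second probe sets of Hand1, Gata2 and Isl1 lay below the first quartile of their array on 12, 13 and 14 of the 16 arrays and did not follow the leading ones (r = 0.163, -0.274 and -0.338). Isl1 1396895_at was higher by 0.98 ± 0.11 in pheochromocytoma than in hyperplasia, opposite in sign to the leading Isl1 probe set (-0.31 ± 0.15, adjusted p = 0.117). The second Gata3 probe set, 1369525_at, differed by 0.59 ± 0.27 in hyperplasia and by 0.13 ± 0.30 in pheochromocytoma, and neither passed.

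Within hyperplasia, Neurod1 varied most, and it split by Xist level. The 4 arrays with a high Xist level, which carry both sex labels, read 8.17 to 8.91, and the 4 with a low one read 6.91 to 7.59. The ranges do not meet. The second Gata3 probe set (9.62 to 10.09 against 9.21 to 9.35) and 2 secondary Sox4 probe sets (1373860_at and 1375123_at) split the same way, and Hand2 1369817_at the other way (10.00 to 10.15 against 10.33 to 10.39). The other 16 probe sets overlapped between these arrays. Of all 31042 probe sets, 15.9% did not overlap in this split, so 5 of 21 is read against that share. The same arrays also split by the mean of the proliferation markers (7.43 to 7.55 at high Xist, 7.74 to 7.99 at low Xist). The means of the mast cell markers split too (5.22 to 5.43 against 4.62 to 4.86). Among the tumours, the array with a low Xist level read 8.05 for Neurod1, and the others read 8.07, 8.00 and 9.09. What the Neurod1 split goes with was not tested. Without the 4 hyperplasia arrays whose Xist level went against the label, 5 of the 10 genes rose in hyperplasia.

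Of all 14217 genes, 5.42% rose and 3.47% fell in hyperplasia, and 9.66% rose and 7.10% fell in pheochromocytoma. The counts of the gene lists that follow are read against these shares, though the lists too were written with earlier results known. Of 14 measured other sympathoadrenal factors, 3 rose and 1 fell in each lesion. Epas1, the hypoxia-inducible factor of chromaffin cells, rose by 1.03 ± 0.15 in hyperplasia (adjusted p = 0.000924) and by 0.62 ± 0.17 in pheochromocytoma (adjusted p = 0.021). Nr3c1, the glucocorticoid receptor, rose by 0.59 ± 0.17 and 0.65 ± 0.19. Meis2, a homeodomain cofactor, fell by 1.34 on the log2 scale in hyperplasia and fell by 1.81 in pheochromocytoma, and Lmo3 (hyperplasia, 1.08 ± 0.24) and Tlx2 (pheochromocytoma, 0.70 ± 0.21) were the third to rise.

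Of 9 measured paralogs of the 10 genes none rose, and Gata6, the GATA factor of the adrenal cortex, fell by 0.71 on the log2 scale in hyperplasia (adjusted p = 0.0444) and fell by 1.07 in pheochromocytoma (adjusted p = 0.00572). The mean of the 9 paralogs lay between 4.72 and 5.14 over the arrays, near the first quartile (4.71 to 4.93). Many of them may thus be too dim to show a change. Of 15 measured partners and cofactors 3 rose and 1 fell in hyperplasia, and 4 rose and 2 fell in pheochromocytoma. Zfpm2, a zinc finger cofactor of GATA proteins, stood at 7.52 ± 0.31 in hyperplasia against 6.19 ± 0.34 in young wild type, and at 7.50 ± 0.52 in pheochromocytoma against 5.83 ± 0.30 in older wild type, and rose by 1.33 ± 0.26 and 1.66 ± 0.29. Zfpm1, its relative, rose by 1.14 ± 0.21 in hyperplasia and differed by 0.12 ± 0.23 in pheochromocytoma, but none of the 15 passed the test of the difference of effects. Tcf4, a partner of basic helix-loop-helix factors, rose by 0.90 ± 0.15 and 0.89 ± 0.16. Id2, which blocks such partners, fell by 0.85 on the log2 scale in hyperplasia (adjusted p = 0.00776), and Lmo4, a LIM-only protein, fell by 1.20 in pheochromocytoma (adjusted p = 0.00975). Six4, a homeodomain partner of Eya proteins, fell by 0.63 in pheochromocytoma but lay below the first quartile on all 16 arrays.

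The list of 12 catecholamine targets also holds Ret and the granins Chga and Chgb. In hyperplasia 1 of the 12 rose (5.42% of all genes did), Slc6a2, the noradrenaline transporter (1.33 ± 0.21, adjusted p = 0.00176). In pheochromocytoma 3 rose (9.66% of all genes). These were Ret, the receptor tyrosine kinase (1.19 ± 0.33), Ddc, the decarboxylase (0.85 ± 0.18), and Slc18a1, the vesicular monoamine transporter (0.73 ± 0.20). Th, the first enzyme of the pathway, differed by -0.13 ± 0.11 in hyperplasia and 0.15 ± 0.12 in pheochromocytoma, and was named after its values were seen. Of the 14 neuronal genes 3 rose in hyperplasia and 6 in pheochromocytoma, and none fell. Prph, a neurofilament-related protein, rose by 1.04 ± 0.18 and 1.22 ± 0.20, and Elavl4, a neuronal RNA-binding protein, by 0.87 ± 0.19 and 0.95 ± 0.21. The median differences were -0.048 and 0.18 for the catecholamine targets and 0.37 and 0.44 for the neuronal genes, in hyperplasia and in pheochromocytoma.

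**Figure D5:**
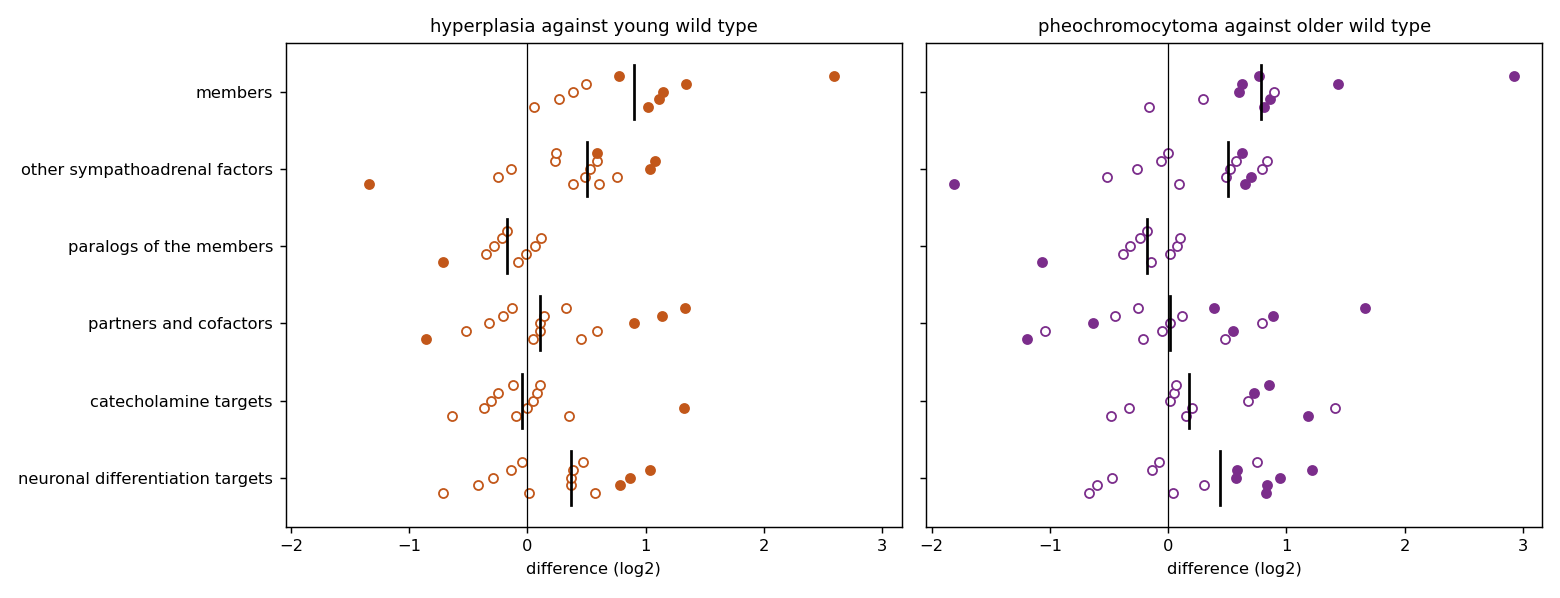
Log2 difference of every measured gene (points, filled where the adjusted p is under 0.05) with the median of each list as a black line, for the 10 genes and 5 lists of related genes, in hyperplasia (left) and in pheochromocytoma (right). The median of the 10 genes is 0.90 in hyperplasia and 0.79 in pheochromocytoma, and that of the paralogs, whose mean level lay near the first quartile of the arrays, -0.17 and -0.18.

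Genes whose level followed a member most closely over the 16 arrays are given as a description, since all arrays share their groups. Only genes with a mean above the median of the array medians were searched, 9478 for each member named here. Neurod1 was most like App (r = 0.967, and 0.879 after group means were taken out), Gata3 most like Zcchc3 (0.955 and 0.921), Gata2 most like Gse1 (0.942 and 0.871) and Sox4 most like Cxcr4 (0.958 and 0.849). Phox2a was most like Abhd14b (0.982 and 0.834), Isl1 most like Tmem35a (0.962 and 0.840), and Eya1 most like Smad1 (0.974 and 0.818). Among the members, Gata2 and Gata3 moved together after group means were taken out (0.869), as did Isl1 and Phox2a (0.760), while Hand1 and Sox4 moved apart (-0.785). In a group of 2 pools the deviations from the mean mirror each other, so pools that lie far apart weigh on these values. The older pools read 11.00 and 9.76 for Gata2 and 10.96 and 10.12 for Gata3. Correlations without the pools were not computed.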

How the data were processed

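Total RNA of the adrenal tissue was measured on 16 Affymetrix rat arrays. The values are log2 values, deposited as 1 value for each probe set and array; RMA is named in the submitters' processing notes, its version is not given, nor is the set of arrays that were normalised together. The number of arrays limits the precision. The 57 control probe sets were not tested. Of the 31042 others, 20826 carry 1 symbol in the platform annotation, 436 several and 9780 none; all 21 probe sets of the 10 genes matched a rat gene table by Entrez identifier.

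Group means were compared in limma 3.58.1 (under R 4.3.3) by a linear model with moderated variances over all 16 arrays, without covariates (12 residual degrees of freedom, prior 3.98), with Benjamini-Hochberg adjustment over 31042 probe sets and an adjusted p under 0.05 as the threshold. A 95% interval is from the same fit. Simulated arrays with known changes were used to check the fit. The members and lists were chosen with earlier results of these data known. From each list up to 4 passing genes with the largest differences are named, or, where none pass, the 2 with the smallest p; all members are described. Arrays with the same replicate number correlated at -0.179 to 0.212 after group means were taken out. Arrays with different numbers were not compared, so whether the numbers pair the arrays was not tested.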

Additional observations from a re-analysis of the deposited data

Results flagged for a closer look

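In pheochromocytoma the third array read 9.09 for Neurod1, while the other 3 read 8.00 to 8.07, so 1 array stood apart from the rest of its group. Of 42 sets of arrays checked this was the 1 past the limit, and chance alone passes about 1 in 20. Neurod1 rose in pheochromocytoma without that array too, and its difference lay between 2.67 and 3.03 over all arrays left out in turn.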

How the results depend on the processing

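Hyperplasia against young wild type had 6 of the 10 genes called and 2296 of all probe sets. With the replicate block 4 and 556 were called, with the mean cortex marker level as covariate 1 and 301, with each gene taken as the mean of its probe sets 1393 genes, without the 4 hyperplasia arrays of discordant Xist level (chosen after seeing the data) 5 and 689, and with the mean proliferation marker level as covariate (also chosen then) 2 and 545. Leaving out each array in turn gave 1 to 7 genes and 564 to 2687 probe sets, the low ends without the second young pool; without the first, 910 were called. Pheochromocytoma against older wild type had 7 and 4425; without the 6 discordant arrays 4 and 2931, with only the groups compared 2 and 1915, with the replicate block 2 and 1593, with the cortex mean 1 and 67, with gene means 2407 genes, with the proliferation mean 1 (Neurod1) and 472. Leaving out each array in turn gave 3 to 8 genes and 596 to 4781 probe sets, the low ends without the second older pool. Pheochromocytoma against hyperplasia had 3 genes called, 5 with gene means, where Isl1 turned to 0.34 (adjusted p = 0.0175), and 3 to 4 without 1 array. With Xist level as a covariate Isl1 was instead called lower in that comparison, the direction of its main value. The gene mean of Isl1 includes 1396895_at, which lay below the first quartile on 14 of the 16 arrays. Older against young wild type had 4, 1 with only the groups compared, 2 with the 3′ minus 5′ hexokinase covariate (chosen after seeing the data), and 3 to 5 without 1 array. The causes were not tested. The cortex and proliferation means do not overlap between a lesion and its wild type, so those fits cannot separate them from the group difference. The difference of effects called 0 genes under every alternative run; it could not be fitted with only the groups compared, nor could comparisons with young wild type without the 6 discordant arrays. Whether the replicate numbers pair the arrays is not known. Labelled sex or Xist level as a covariate, the intensity trend, leaving out the dimmest 30%, and array weights left the counts of the 10 genes within 1.5 times in all 5 comparisons.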
